A study of Homo sapiens with 4 samples.

Results

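The 10 genes examined here encode AP-1 transcription factors and their closest dimer partners: FOS, FOSB, FOSL1, FOSL2, JUN, JUNB, JUND, ATF3, BATF and BATF3. For each gene, every binding interval listed for V5-tagged SOX2 or for the isolated SOX2 DNA-binding domain (SOX2-DBD) that overlapped the gene body or the 50 kb on either side of it was collected. In all, 11 of the 58827 distinct intervals of the series were found in these windows. They lay in the windows of 6 of the 10 genes, and the windows of FOSB, FOSL1, JUNB and JUND held none.

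Binding had been mapped by CUT&RUN, in which a nuclease tethered through an antibody cuts the DNA around a bound protein and the fragments set free are sequenced. The antibody recognised the V5 tag, and the cells were BJ fibroblasts, an established line from human foreskin, after 48 h of ectopic expression of either protein. There were 4 samples in 2 groups (SOX2 and SOX2-DBD, 2 replicates each). The peak list analysed for each group was attached to replicate 1, and whether it pools replicates is not given. So no value below has an error between replicates and no difference has a replicate check. The question put to each gene was whether its sites were listed for the full-length protein, for the DNA-binding domain or for both. Sequencing depth is unknown, and no sample without an introduced protein was analysed here.

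AP-1 is a dimer of basic leucine zipper proteins. FOS-family proteins pair with JUN-family proteins, JUN proteins also pair with each other, and ATF3, BATF and BATF3 join JUN proteins in related dimers. Many of these genes are immediate early genes, induced within minutes by growth factors or stress, and in fibroblasts AP-1 takes part in growth, wound and matrix responses. The dimer binds the sequence TGACTCA, whereas SOX proteins bind a core of ACAAAG or ACAATG through their HMG box, the part retained in SOX2-DBD.

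Of the 11 intervals, 5 were SOX2-only, 5 were shared by both lists and 1 was SOX2-DBD-only. In the whole series, 43607 intervals were SOX2-only, 14300 were shared and 920 were SOX2-DBD-only. A shared interval has identical coordinates and signal in both lists, and the group in which it was measured is not stated. The listed coordinates of a shared interval need not span the whole region behind its signal. In 2 of the 5 shared intervals here the region of maximum signal lay outside the interval, against 24.4% of shared intervals in the series. Altogether, 10 of the 11 came from the SOX2 list and 6 from the SOX2-DBD list. The SOX2 list is also much the longer, with 57907 distinct intervals against 15220. The intervals were not evenly spread, since 8 of them lay on chromosome 1, at JUN and in the neighbouring windows of ATF3 and BATF3.

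To show what these intervals look like, the 200 bp at the centre of 8 of them are given, on the plus strand of hg19 and read 5′ to 3′. They are the interval closest to the start of each of the 6 genes and the 2 intervals whose centre held both a SOX core and an AP-1 sequence. Capitals mark SOX core matches (ACAAAG or ACAATG, or their reverse complements CTTTGT and CATTGT) and AP-1 matches (TGACTCA or TGAGTCA).

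ATF3 intron, shared, chr1:212769741-212769940: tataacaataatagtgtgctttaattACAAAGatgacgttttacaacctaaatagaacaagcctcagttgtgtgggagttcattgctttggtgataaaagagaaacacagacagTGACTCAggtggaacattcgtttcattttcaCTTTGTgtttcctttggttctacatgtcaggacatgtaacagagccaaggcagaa
JUN, far downstream, shared, chr1:59193186-59193385: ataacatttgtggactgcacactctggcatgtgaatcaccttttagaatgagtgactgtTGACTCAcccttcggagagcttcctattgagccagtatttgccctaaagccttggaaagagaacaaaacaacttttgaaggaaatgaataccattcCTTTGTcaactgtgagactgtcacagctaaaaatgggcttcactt
JUN, downstream, shared, chr1:59230020-59230219: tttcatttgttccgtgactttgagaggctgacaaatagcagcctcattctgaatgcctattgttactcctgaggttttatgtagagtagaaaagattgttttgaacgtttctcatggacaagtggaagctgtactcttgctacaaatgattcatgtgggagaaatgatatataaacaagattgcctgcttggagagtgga
FOS, gene end, SOX2-only, chr14:75748969-75749168: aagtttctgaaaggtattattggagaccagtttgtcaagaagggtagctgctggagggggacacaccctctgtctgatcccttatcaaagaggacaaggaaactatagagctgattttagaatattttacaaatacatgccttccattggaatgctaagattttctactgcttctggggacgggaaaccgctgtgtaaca
FOSL2, intron of PLB1, SOX2-only, chr2:28685202-28685401: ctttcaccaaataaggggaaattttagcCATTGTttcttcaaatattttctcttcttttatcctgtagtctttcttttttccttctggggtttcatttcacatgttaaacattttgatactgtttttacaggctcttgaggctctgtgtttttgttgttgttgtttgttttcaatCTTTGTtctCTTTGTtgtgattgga
BATF, upstream, SOX2-only, chr14:75986079-75986278: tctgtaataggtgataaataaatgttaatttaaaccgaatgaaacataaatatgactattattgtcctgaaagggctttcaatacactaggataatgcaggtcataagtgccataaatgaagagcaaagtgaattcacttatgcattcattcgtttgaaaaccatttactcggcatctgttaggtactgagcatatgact
ATF3 intron, near the gene start, SOX2-only, chr1:212746150-212746349: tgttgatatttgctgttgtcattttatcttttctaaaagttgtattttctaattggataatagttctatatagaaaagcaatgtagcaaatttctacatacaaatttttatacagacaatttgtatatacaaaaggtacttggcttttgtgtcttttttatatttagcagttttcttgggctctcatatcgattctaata
BATF3, upstream, SOX2-only, chr1:212878601-212878800: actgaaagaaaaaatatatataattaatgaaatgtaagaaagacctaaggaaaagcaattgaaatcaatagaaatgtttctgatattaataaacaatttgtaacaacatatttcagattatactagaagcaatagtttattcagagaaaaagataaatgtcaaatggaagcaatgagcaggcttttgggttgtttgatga

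FOS encodes the founding member of its family and is the classical immediate early gene (ENSG00000170345.10, chr14:75745529-75748933, plus strand). Its window held 1 interval, which was SOX2-only, at chr14:75748847-75749291. The first 87 bp of that interval covered the last bases of the FOS gene, and its centre lay 3.54 kb downstream of the gene start, outside any annotated gene. The total signal, the authors' deposited value for the interval, was 1802, at the 31.2 percentile of SOX2-only intervals, and the maximum signal was 9. Its 445 bp placed it at the 27.0 percentile of width in that class. The interval held 2 SOX core matches, both in the part that overlaps the FOS gene and outside the central window printed above, and no AP-1 match.

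FOSL2, a FOS relative with slower kinetics of induction (ENSG00000075426.12, chr2:28615315-28640184, plus strand), had 1 interval in its window. It was SOX2-only, at chr2:28684871-28685732, 70.0 kb downstream of the FOSL2 start, and lay in an intron of PLB1, a phospholipase gene. The PLB1 start was the nearest coding gene start, 5.29 kb away. The interval was among the stronger of its class, with a total signal of 4146 (87.1 percentile) and a width of 862 bp (84.6 percentile). It held 5 SOX core matches, the highest number in the 11 intervals, of which 3 fell in the central window, and no AP-1 match.

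FOSB (ENSG00000125740.15, chr19:45971253-45978437) and FOSL1, which encodes FRA1 (ENSG00000175592.9, chr11:65659520-65668044), had no listed interval in their windows. From the FOSB start the nearest listed interval was shared and 162.5 kb away. From the FOSL1 start it was SOX2-only and 72.7 kb away. So in the FOS family 2 of 4 windows held an interval, both intervals were SOX2-only, and none of the 4 windows held a SOX2-DBD interval. Of all coding-gene windows, 70.1% held an interval of any class, 65.1% a SOX2-only, 37.6% a shared and 4.72% a SOX2-DBD-only interval. With only 4 windows, these counts do not set the FOS family apart.

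JUN, the central dimer partner of the family (ENSG00000177606.9, chr1:59242517-59249720, minus strand), had 3 intervals in its window and all 3 were shared. A shared interval was present in 37.6% of coding-gene windows. Within 100 kb, JUN also had 4 SOX2-only and 2 SOX2-DBD-only intervals, so the absence of other classes holds for the 50 kb window only. The closest of the 3 shared intervals, at chr1:59229913-59230327, was centred 19.6 kb downstream of the JUN start, in the lncRNA gene ENSG00000283445. It lay within 1 kb of the start of AL136985.1, which the annotation gives as a miRNA gene. It had a total signal of 3526 (66.6 percentile of shared intervals) and a maximum signal of 18 (94.4 percentile), the highest maximum among the 11. It held neither a SOX core nor an AP-1 match over its whole 415 bp.

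The second JUN interval, at chr1:59284514-59284831, lay 35.0 kb upstream of the JUN start in LINC01135, an lncRNA gene, with a total signal of 2915 (53.8 percentile). The region of maximum signal given for it lay outside the interval, 112 bp past its end. Its 318 bp held 1 SOX core match and no AP-1 match. The third, at chr1:59193136-59193435, lay 56.4 kb downstream of the JUN start, again in ENSG00000283445, and was weak for its class, with a total signal of 1573 (13.9 percentile). The nearest coding gene start there was that of MYSM1, a histone deubiquitinase gene, 27.5 kb away. Its central window held 1 TGACTCA and 1 SOX core match, as printed above.

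JUNB (ENSG00000171223.6, chr19:12902300-12904129) and JUND (ENSG00000130522.6, chr19:18390504-18392432) encode the other JUN proteins, and their windows held no interval. The nearest listed interval was shared and 54.3 kb from the JUNB start, and SOX2-only and 227.6 kb from the JUND start. All 3 genes on chromosome 19, FOSB included, therefore lacked an interval. Of the 1480 coding-gene windows of that chromosome, 35.5% held one.

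ATF3, a stress-induced factor (ENSG00000162772.18, chr1:212738676-212794119, plus strand), had 2 interval centres inside its gene body, both in introns, and no other AP-1 gene had one. The first was SOX2-only, at chr1:212745869-212746630, 7.57 kb downstream of the gene start, with a total signal of 3005 (69.7 percentile) and 2 SOX core matches in the whole interval. The second was shared, at chr1:212769521-212770160, 31.2 kb downstream of the gene start and 12.2 kb upstream of the closest ATF3 transcript start. It carried the highest total signal of the 11 intervals, 5726 (90.3 percentile of shared intervals), and its 640 bp were at the 88.6 percentile of width. It held 3 SOX core matches and 1 TGACTCA in all, with 2 and 1 of these in the central window. The region of maximum signal lay 280 bp from the TGACTCA, so sequence and signal peak did not coincide in this interval.

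BATF3, which in dendritic cells directs the formation of a cross-presenting subset (ENSG00000123685.9, chr1:212859759-212873182, minus strand), had 3 intervals in its window, 1 of each class. The SOX2-only interval, at chr1:212878376-212879026, was centred 5.52 kb upstream of the BATF3 start, with a total signal of 3038 (70.5 percentile) and 1 SOX core match. The shared interval, at chr1:212901618-212901628, was only 11 bp wide (0.605 percentile) and lay in an untranslated part of an exon of NSL1, a kinetochore gene. Its region of maximum signal lay 217 bp past its end, and the down-sampled SOX2 list gave an interval of 354 bp with the same start, which contained that region.

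The SOX2-DBD-only interval, at chr1:212840869-212841748, lay outside genes, 31.9 kb downstream of the BATF3 start, and within the windows of both ATF3 and BATF3. It was counted once in the sum of 11. Its total signal was 3502 (34.3 percentile of SOX2-DBD-only intervals) and its width 880 bp (36.4 percentile). It held 1 SOX core match and 1 AP-1 match, the latter 113 bp from the centre of the region of maximum signal.

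BATF, a partner of JUN proteins in lymphocytes (ENSG00000156127.8, chr14:75988798-76013336, plus strand), had 1 SOX2-only interval, at chr14:75985836-75986521. Its centre lay 2.62 kb upstream of the BATF start, the shortest such distance in the set. The total signal was 3717 (82.3 percentile) and the maximum signal 14 (89.1 percentile). It held no SOX core match in its 686 bp, and its single AP-1 match lay 231 bp from the centre, outside the window printed above.

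**Figure D1:**
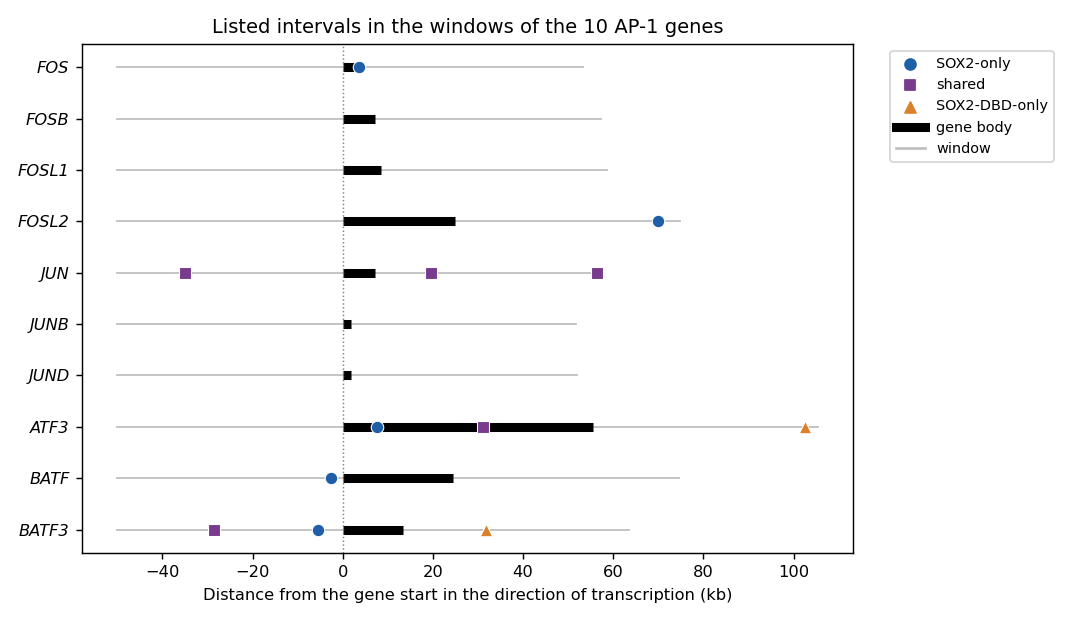
Position of the 11 listed intervals in the windows of the 10 AP-1 genes, as distance in kb from each gene start in the direction of transcription. Points are interval centres by class, black bars are gene bodies and grey lines are windows; the SOX2-DBD-only interval appears in the rows of both ATF3 and BATF3, JUN has only shared intervals, and FOSB, FOSL1, JUNB and JUND have none.

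AP-1 windows held a listed interval about as often as windows of protein-coding genes at large. A window with an interval of any class was found for 6 of the 10, against 70.1% of 20163 protein-coding genes. A SOX2-only interval was present in 5 of the 10 windows (FOS, FOSL2, ATF3, BATF and BATF3), against 65.1%, and a shared interval in 3 (JUN, ATF3 and BATF3), against 37.6%. A SOX2-DBD-only interval was present in 2 windows, against 4.72%, but both rest on the same interval. For a set of 10 these counts are near the background, and none sets the AP-1 genes apart. The median was 1 interval per AP-1 window and 2 per coding-gene window.

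AP-1 genes are short, with a median gene body of 7.86 kb against 27.2 kb for coding genes, so their windows were also compared per length. JUN had 28.0 intervals per Mb of window, BATF3 26.4 and ATF3 19.3. FOS had 9.67 per Mb, BATF 8.03 and FOSL2 8.01. Within each of these groups of 3 genes the interval counts were equal (3 and 1), so the order inside a group reflects window length alone. The median over the 10 genes was 8.02 per Mb, against 12.6 over all coding genes. Pooled over the 1.11 Mb that the windows cover, the density was 9.87 per Mb, against 24.6 per Mb over all coding-gene windows. With 10 kb or 100 kb on either side, the pooled AP-1 density was higher, at 14.4 and 13.9 per Mb. The value over all coding genes at those flanks is not given here.

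The genes with and without intervals differed in base composition. Window GC content was 52.7% to 54.9% for FOSB, FOSL1, JUNB and JUND and 42.7% to 50.6% for the 6 genes with an interval, so the ranges did not overlap. SOX core matches were fewer in the first set, at 0.644 to 0.839 per kb of window, than in the second, at 1.20 to 1.63 per kb. AP-1 matches went the other way, at 0.187 to 0.226 per kb against 0.0870 to 0.180. The medians over all coding genes were 1.37 SOX core and 0.157 AP-1 matches per kb. Over all coding genes the median SOX core density fell from 1.80 per kb in the lowest GC band to 0.789 in the highest. The windows without an interval also held more coding genes, 5 to 11 against 1 to 3, with a median of 3 over all coding-gene windows. Over all coding genes, 26.8% of the windows in the highest of 10 equal-sized bands of GC content held an interval, where FOSL1, JUNB and JUND lie, and 83.8% of those in the band of JUN, ATF3 and BATF3. The band of 48.1% held both FOSB, without an interval, and FOSL2, with 1. The part of base composition, motif supply or gene density in the AP-1 values was not tested.

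**Figure D2:**
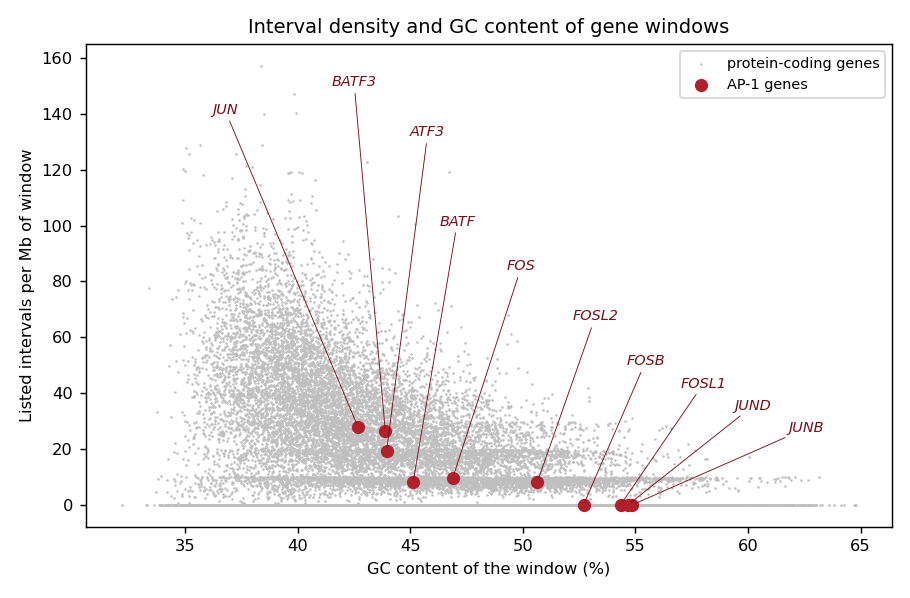
Listed intervals per Mb of window (vertical axis) against the GC content of the window in percent (horizontal axis) for protein-coding genes (grey) and the 10 AP-1 genes (red). FOSB, FOSL1, JUNB and JUND lie at 0 intervals per Mb and 52.7% GC or more, and JUN has the highest density of the AP-1 genes at 28.0 per Mb; 18 coding genes with a window GC of 30% or less are not drawn.

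None of the 10 gene starts had a listed interval within 1 kb, against 2.29% of coding genes. Within 5 kb, FOS and BATF had one, against 13.3% of coding genes. The nearest listed interval lay 2.28 kb from the start of BATF, 3.32 kb from FOS, 5.19 kb from BATF3, 7.19 kb from ATF3, 19.4 kb from JUN and 61.5 kb from FOSL2. For FOSL2 this was a SOX2-only interval upstream of the gene and outside its window, at chr2:28553170-28553813. The median over the 10 genes was 36.8 kb, against 28.8 kb for coding genes. For 8 of the 11 intervals the nearest coding gene start belonged to an AP-1 gene. The interval in the FOSL2 window, the far JUN interval and the shared ATF3 interval were closer to the starts of PLB1, MYSM1 and GARIN4. Proximity does not assign an interval to a gene.

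**Figure D3:**
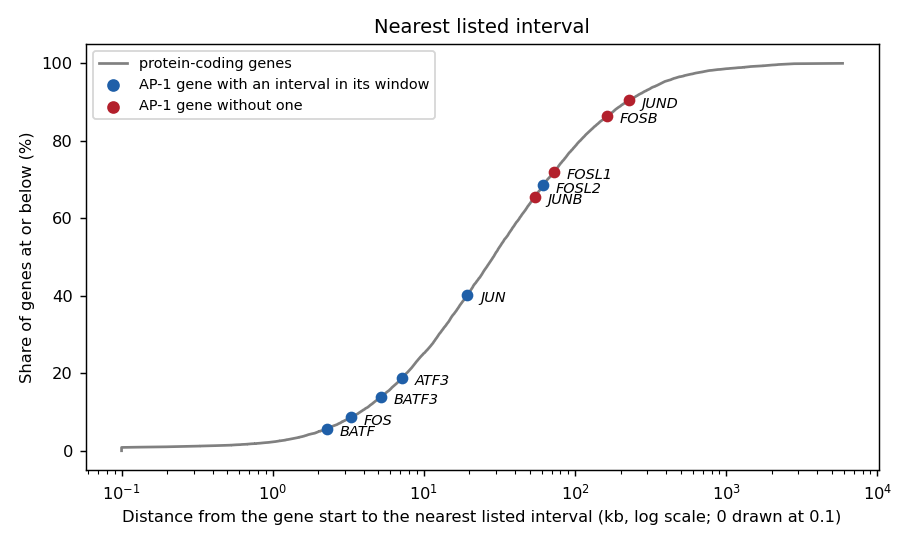
Distance from the gene start to the nearest listed interval of any class in kb (log scale) against the cumulative share of protein-coding genes in percent (grey line), with the AP-1 genes placed on the line. BATF, FOS, BATF3 and ATF3 lie between 2.28 and 7.19 kb, and FOSB and JUND lie at 162.5 and 227.6 kb.

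The share of SOX2-list intervals that were also in the SOX2-DBD list was 5 of 10 in the AP-1 windows (50%, Wilson 95% confidence interval 23.7 to 76.3), against 24.7% of the whole list. The interval of the first value is wide and its lower bound lies just below the second. These confidence intervals cover counting error only, and intervals are not replicate samples. With 10 kb on either side in place of 50 kb, 1 of 5 was shared (20.0%), since the 3 JUN intervals and the shared BATF3 interval then fall outside.

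In strength the 11 intervals were spread over their classes, and 7 of them lay above the class median of total signal and 6 above that of width. The SOX2-only intervals near BATF, FOSL2, ATF3 and BATF3 were all above both medians, and the interval at the end of FOS was below both. By maximum signal, those near BATF, BATF3 and FOSL2 lay at the 89.1, 76.4 and 66.7 percentiles of the class. The ATF3 one lay at the 14.7 percentile, and its maximum of 7 was the lowest of the 11. The shared intervals ran from the 9.97 percentile of total signal (BATF3) to the 90.3 percentile (ATF3). Total signal can grow with the width of an interval, so these ranks are not independent. For shared intervals the listed width need not be that of the region behind the signal. The shared BATF3 interval of 11 bp had a total signal of 1461, and the JUN one of 300 bp had 1573.

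**Figure D4:**
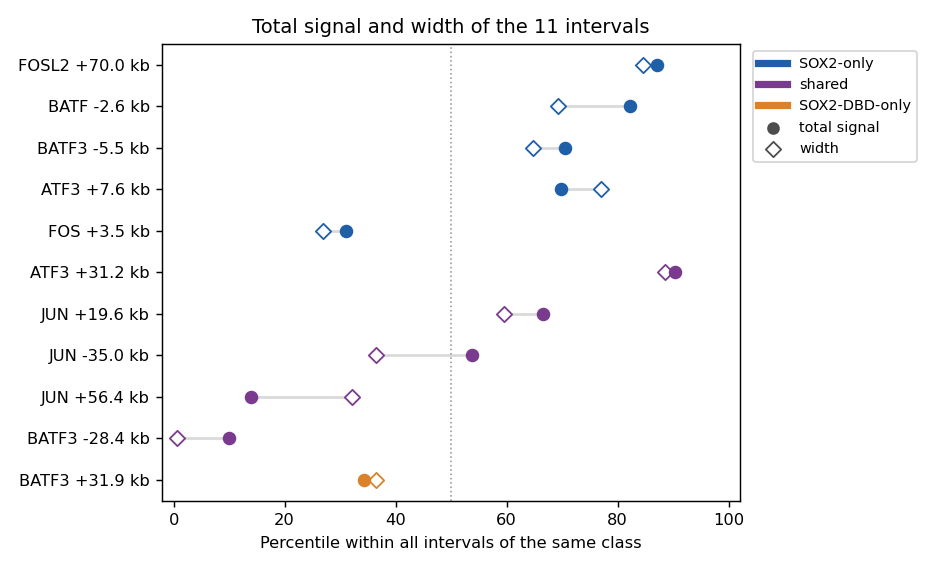
Percentile of total signal (filled circles) and of width (open diamonds) of each of the 11 intervals among all intervals of its own class, named by the closest AP-1 gene and the distance of the interval centre from its start in kb. Widths are those of the listed coordinates, which for shared intervals need not span the region behind the signal. SOX2-only intervals lie above the median (dotted line at 50) except at FOS, and the shared interval in the ATF3 intron is the highest of the shared intervals, at 90.3.

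Sequence matches were counted in the 200 bp at each interval centre, on both strands. A SOX core was present in 3 of the 11 windows (27.3%, 9.75 to 56.6), at FOSL2, in the ATF3 intron and far downstream of JUN, against 47.2% of all 58827 windows. Around the region of maximum signal in place of the centre it was present in 5 of the 11 (45.5%), against 48.9%, and with a 100 kb flank in 46.4% of the central windows, so a difference from the whole series was not shown. TGACTCA was present in 2 of the 11 (18.2%, 5.14 to 47.7), against 9.22%, and both windows were shared intervals that also held a SOX core. In the whole series it was present in 16.9% of shared and 6.59% of SOX2-only windows, and 5 of the 11 here were shared. Around the region of maximum signal it was present in 1 of the 11 (9.09%), against 9.94%, and with a 100 kb flank in 7.14% of the central windows. Of all windows, 4.19% held both, and 8.20% of the shared ones. In windows of the same size 10 kb downstream of all listed intervals, the SOX core was present in 27.6% and TGACTCA in 2.98%. In such windows downstream of the 11 intervals alone, the SOX core was present in 5 (45.5%), more than at their centres, and TGACTCA in 0. Over the whole interval, 8 of the 11 held a SOX core and 4 held TGACTCA (ATF3, JUN, BATF and the SOX2-DBD-only interval), against 77.3% and 18.9% of all intervals long enough to be searched. The cyclic AMP response element TGACGTCA, to which ATF and JUN proteins bind, was found in none of the 11 intervals and in 0.148% of all intervals, which says only that these letters are not there. A match describes the sequence and does not show that a factor was bound.

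The seventh column of the SOX2 list, a whole number without a stated meaning that is present in shared intervals, was 1 for the JUN intervals 19.6 and 56.4 kb downstream of the start and 0 for the other 3. Across the list, it was 1 or more in 34.5% of shared intervals. The down-sampled SOX2 list held 7 of the 10 SOX2-list intervals (70.0%, 39.7 to 89.2), against 64.3% of the whole list. The ones it lacked were the closest JUN interval, the JUN interval upstream of the start and the SOX2-only interval at BATF3.

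Other genes of the AP-1 pathway were taken from 5 lists, whose counts are to be read against the 70.1% of coding-gene windows with any interval, the 65.1% with a SOX2-only and the 37.6% with a shared interval. Of 9 further basic leucine zipper partners, 5 had an interval in the window, all of them with SOX2-only intervals, and 1, ATF7, with a shared interval as well. ATF2 had 12 intervals, all SOX2-only, JDP2 had 5, also all SOX2-only, and ATF7 had 4. JDP2, which encodes a repressor that pairs with JUN, lies between FOS and BATF on chromosome 14, and its window overlaps that of BATF. The median of this list was 1 interval per window, or 8.64 per Mb, close to that of the 10 AP-1 genes.

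Of 13 kinases that act upstream of AP-1, 10 had an interval, 8 of them a SOX2-only and 6 a shared interval, with a median of 18.4 per Mb. MAPK10, which encodes a JUN N-terminal kinase of the nervous system and spans 604.6 kb, had 26 intervals. MAP2K4, which encodes an activator of these kinases, had 17, and MAPK8 had 11. Of 7 regulators of FOS and JUN transcription, 6 had an interval, and the median of 29.7 per Mb was the highest of the 5 lists. MEF2A had 16, CREB1 10 and ELK3 6, whereas SRF, whose product binds the FOS promoter, had 0.

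Of 11 other immediate early genes, 10 had an interval and each of these had a SOX2-only interval, with a median of 9.70 per Mb. CCN1 and EGR2 had 5 intervals each, and IER3 and KLF4 had 3 each. Of 12 AP-1 targets known in fibroblasts, 8 had an interval and all 8 had a shared interval, with a median of 9.07 per Mb. COL1A2, which encodes a type I collagen chain, had 14 intervals, of which 9 were shared, at 102.7 per Mb. CXCL8 had 8 intervals (3 shared), IL6 had 5 (1 shared) and MMP1, which encodes a collagenase, had 5 (3 shared). The coding-gene median was 12.6 per Mb, and the lists are described here without a test.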

How the data were processed

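CUT&RUN intervals for V5-tagged SOX2 and SOX2-DBD were analysed from 3 peak lists (SOX2, SOX2-DBD and a down-sampled SOX2 list), all attached to replicate 1; whether they pool replicates is not given in the sources used here. Bowtie2 2.3.4.1, SAMtools, bedtools 2.27.1, SEACR 1.3, deepTools 3.5.0 and hg19 are named, per the submitters' processing notes, without settings. Total and maximum signal are the authors' deposited values, whose normalization is not stated, and were only ranked within a class. The seventh column was taken as deposited, as a score of unstated meaning. The down-sampled list carries positions and other fields such as interval length, as deposited, but no signal.

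Exact duplicate rows (1654 in each of the SOX2 and SOX2-DBD lists) were counted once, and classes were set by an overlap of at least 1 bp. Windows and the 20163 protein-coding genes follow GENCODE release 44 mapped to GRCh37, on which 0 rows of any list passed a chromosome end. The promoter table supplied was of another build and was not used. Every interval in a window was described, and in each pathway list the 3 genes with most intervals were named, with any gene tied for the last place. The genes and lists were chosen with earlier results of these data known. With 1 list per group no test was run, and shares carry Wilson 95% confidence intervals. Interval and motif counting was tested on simulated data. Alternatives covered the flank, overlap rule, merging, duplicates, signal threshold, down-sampled list and motif window. The scripts ran under python 3.11.15 and used scipy 1.17.1, pandas 2.3.3, numpy 2.4.6 and matplotlib 3.10.9.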

Additional observations from a re-analysis of the deposited data

How the results depend on the processing

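With 10 kb in place of 50 kb the windows held 5 intervals, with a median of 0 per gene and 20.0% of SOX2-list intervals shared, and with 100 kb they held 28, with a median of 2, by construction of wider windows. Keeping the upper 50% of each list by total signal gave a median of 0.5. The SOX core was present in 0% of 100-bp central windows and in 72.7% of whole intervals, again by the length searched. TGACTCA ranged from 7.14% (100 kb) to 36.4% (whole interval). The number of genes with an interval ranged from 4 of 10 (10 kb) to 8 of 10 (100 kb). Within 100 kb, 81.6% of all coding genes had an interval, and the share within 10 kb is not given here. Counting by interval centre, merging within 500 bp and rows as deposited left the counts at 11 intervals and 6 genes. With the down-sampled list in place of the full SOX2 list there were 10 intervals and 6 genes. Of these intervals, 7 came from the down-sampled list and the rest only from the SOX2-DBD list, among them the JUN intervals that the down-sampled list lacked. The classes changed accordingly, and 42.9% of the 7 were shared. No paired analysis was possible because only lists attached to replicate 1 were analysed here, and leaving out a replicate was not possible for the same reason. The unknown depth limits what a window without an interval shows, since it means only that nothing was listed there.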

Other observations

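Between 50 and 100 kb from the gene bodies, outside the windows described above, lay further intervals at most of these genes. JUN had 9 intervals within 100 kb, of which 4 were SOX2-only, 3 shared and 2 SOX2-DBD-only, so that the JUN intervals beyond 50 kb were of the classes absent from the nearer window. The SOX2-DBD-only pair lay upstream of JUN at chr1:59314302-59315300 and chr1:59347905-59349513, with total signals of 3824 and 5489. BATF3 had 8 intervals within 100 kb (4 SOX2-only, 3 shared and 1 SOX2-DBD-only). JUNB had 1, a shared interval at chr19:12847729-12848010, and FOSL1 had 2, both SOX2-only. FOSB and JUND had none at that distance. Altogether 28 distinct intervals lay within 100 kb of the 10 genes (16 SOX2-only, 9 shared and 3 SOX2-DBD-only), with a median of 2 per gene against 4 for all coding genes.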
